A study of Bos taurus with 20 samples.

Results

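The genes described here encode, in the nuclear genome, the protein subunits of the oxidative phosphorylation system, and cytochrome c. They were chosen by symbol (the NDUFA, NDUFB, NDUFC, NDUFS, NDUFV, UQCR, COX4I, COX5, COX6, COX7, COX8 and ATP5 families, SDHA to SDHD, CYC1 and CYCS), leaving out the NDUFAF assembly factors and pseudogenes. The rule found 86 genes among 11406 named genes with a tested probe, each with 1 probe on the array. Of these, 76 carried such a symbol in the array's own annotation, and 10 (NDUFA11, NDUFA12, NDUFA13, UQCR10, UQCRQ, COX4I1, COX4I2, COX8B, ATP5IF1 and ATP5MK) were reached through their current RefSeq symbol. By symbol, 39 belong to complex I, 4 to complex II, 9 to complex III, 15 to complex IV and 18 to complex V, and CYCS is the carrier between complexes III and IV. All 86 passed the filter on dim probes, 83 exceeded background clearly on each of the 20 arrays and the other 3 on 19, and no value was saturated.

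Complexes I and II pass electrons from NADH and succinate to ubiquinone, complex III passes them to cytochrome c and complex IV to oxygen. The proton gradient that complexes I, III and IV build drives ATP synthesis by complex V. In skeletal muscle these complexes are abundant in slow oxidative fibres, and complex IV has muscle-type forms of some subunits (COX6A2, COX7A1, COX8B) beside forms found in most tissues. Some genes that the symbol rule takes are not canonical subunits of the complex they are counted in: NDUFA4 is now assigned to complex IV, NDUFA4L2 is its paralog, COX7A2L acts in the joining of complexes III and IV, and ATP5IF1 inhibits the ATP synthase. DMAC2L, carried on the array as ATP5S, is likewise counted with complex V by its older symbol.

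Neck muscle (Bos taurus) came from a slaughterhouse, from 5 control animals and from 5 treated animals. The treated animals had received dexamethasone, a synthetic glucocorticoid, orally at 0.4 mg per animal and day over 31 days, and estradiol, an oestrogen, by intramuscular injection of 5 mg per animal and week, 6 times. The muscle was kept at 4 °C under vacuum and sampled at day 0 and day 14, so that control day 0, treated day 0, control day 14 and treated day 14 hold 5 arrays each, 1 per animal. The control animals are K3, K6, K8, K9 and K10 and the treated ones DE27, DE29, DE30, DE31 and DE32, and values of a group follow this order. The labels give no dose arm for either hormone alone, so their effects cannot be told apart.

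Levels are log2 of the processed signal minus the 75th percentile of that array (with the mean percentile added back), and differences are log2 differences with the standard error (SE) of the limma fit. A gene passed where its Benjamini-Hochberg adjusted p over 15430 tested probes was below 0.05. That percentile was 658 to 937 signal units at day 0 in controls and 711 to 951 in treated animals, and 277 to 533 and 324 to 446 at day 14, so the values after storage are relative to a lower overall signal. With this centring the median of all tested probes shifted by 0.10 (controls) and 0.11 (treated) with storage. Of 10 skeletal muscle fibre markers 9 were tested, and all 9 were well above background on every array. The arrays lie on 6 slides, and by the file headers feature extraction was run on 3 dates, called sessions here. Slide 6 holds control K10 and treated DE27 at day 0 beside control K3 and K8 at day 14. In whole tissue, fewer muscle cells and less of a transcript per cell cannot be told apart. RNA quality after storage was not examined, and its part in the changes between day 0 and day 14 was not tested.

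At day 0, most of the genes had a higher mean in treated than in control muscle, but few passed the test. NDUFV1, SDHA and COX7A2L rose (3 of 86, 3.49%), against a background of 1.35% of tested probes called higher, and none fell, against 1.12% called lower. The difference was above 0 for 75 of the 86 genes (87.2%), where 48.9% of all tested probes were above 0. The median difference was 0.25 over the 86 genes and -0.01 over all tested probes. At an unadjusted p under 0.05 there were 26 of the 86 genes (30.2%) and 2663 of 15430 probes (17.3%).

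NDUFV1 encodes the complex I core subunit that binds NADH and carries the flavin. Its level was 15.36, 15.12, 15.13, 15.10 and 14.98 in control and 15.76, 15.82, 15.58, 15.64 and 15.63 in treated muscle at day 0. Every treated value lay above every control value. The difference was 0.55 ± 0.12 (SE, n = 5 and 5), a 1.46-fold higher level (limma, adjusted p = 0.0416).

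SDHA encodes the flavoprotein of complex II, which oxidises succinate and is also an enzyme of the tricarboxylic acid cycle. Its level was 15.96, 16.27, 15.96, 16.15 and 15.91 in control and 16.56, 16.70, 16.69, 16.56 and 16.69 in treated muscle at day 0. The groups did not overlap. The difference was 0.59 ± 0.12 (SE), 1.5-fold (limma, adjusted p = 0.0312). The other 3 subunits did not pass: SDHB differed by 0.06 ± 0.15, SDHC by 0.51 ± 0.20 and SDHD, which anchors the complex in the membrane with SDHC, by -0.05 ± 0.31.

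COX7A2L had levels of 10.68, 11.05, 10.72, 10.91 and 10.75 in control and 11.32, 11.44, 11.28, 11.38 and 11.49 in treated muscle. The groups again did not overlap, and the difference was 0.56 ± 0.12 (SE), 1.48-fold (limma, adjusted p = 0.0397). Of the genes with one group above the other throughout, NDUFA4L2 had the largest difference, 0.90 ± 0.25, without passing (adjusted p = 0.0834).

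The calls at day 0 are near the threshold. Within slides 1, 3 and 6 NDUFV1 differed by 0.58, 0.50 and 0.78, SDHA by 0.58, 0.57 and 0.65, and COX7A2L by 0.58, 0.52 and 0.57. With slide as a block the differences were 0.59, 0.59 and 0.55, and none passed (adjusted p = 0.0636, 0.0675 and 0.0863). When 1 animal was left out, SDHA and COX7A2L passed without K6, NDUFV1 without K3 and SDHA without DE27. Without DE31 none of the 3 passed and NDUFA7 did, and without K8, K9, K10, DE29, DE30 or DE32 none of the 86 genes passed.

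**Figure D1:**
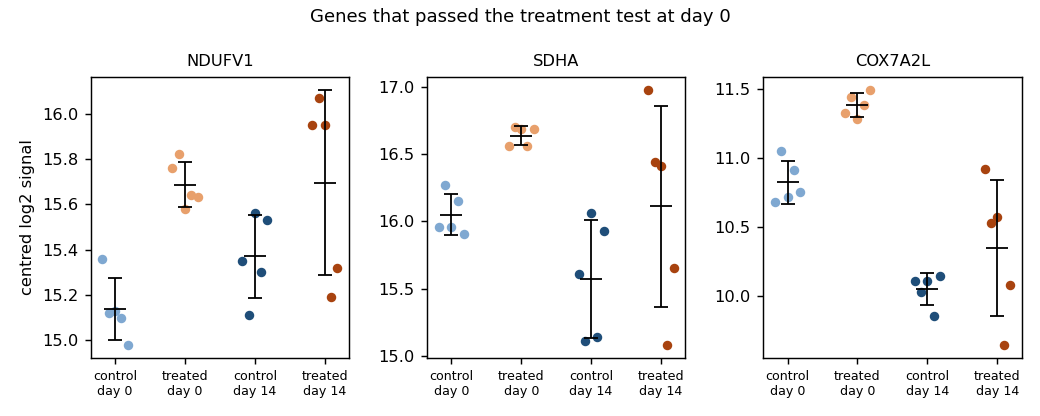
Centred log2 signal (vertical axis) of NDUFV1, SDHA and COX7A2L in the 4 groups; each point is 1 animal, the horizontal mark is the mean and the bar the SD (n = 5). At day 0 the treated points lie above all control points for each gene, and at day 14 the treated points spread widely, from 15.08 to 16.98 for SDHA.

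By complex, the median treatment difference at day 0 was 0.24 for complex I, 0.28 for II, 0.32 for III, 0.35 for IV and 0.18 for V, and CYCS differed by 0.29 ± 0.22. In complex I, 38 of 39 genes were above 0, from NDUFA4 at -0.73 ± 0.67 to NDUFA4L2. All 7 nuclear core subunits of complex I, which carry its catalysis, were above 0, with a median of 0.49. In complex III all 9 were above 0, from UQCRB, a small subunit of complex III, at 0.11 ± 0.45 to UQCRC1, a large core protein, at 0.52 ± 0.13 (adjusted p = 0.0652).

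In complex IV, 10 of 15 were above 0, and the lowest was COX6C at -0.22 ± 0.48. The muscle-type COX6A2, COX7A1 and COX8B differed by 0.39 ± 0.13, 0.35 ± 0.16 and 0.46 ± 0.14, and the ubiquitous COX7A2 and COX8A by 0.46 ± 0.22 and 0.35 ± 0.16. None of these passed. In complex V, 14 of 18 were above 0, from ATP5PO, a stalk subunit, at -0.59 ± 0.69 to ATP5IF1 at 0.41 ± 0.12 (adjusted p = 0.104).

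The wide errors of NDUFA4, ATP5PO and COX6C at day 0 go with single arrays. NDUFA4 read 16.94, 16.40, 16.40, 16.60 and 16.10 in controls and 12.75, 16.70, 16.63, 16.73 and 15.97 in treated muscle. ATP5PO read 13.90, 13.07, 13.08, 13.03 and 11.85 in controls and 9.59, 13.52, 13.20, 13.32 and 12.37 in treated muscle. In both genes DE27 was the lowest treated array and K10 the lowest control array, and both of these arrays were on slide 6.

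**Figure D2:**
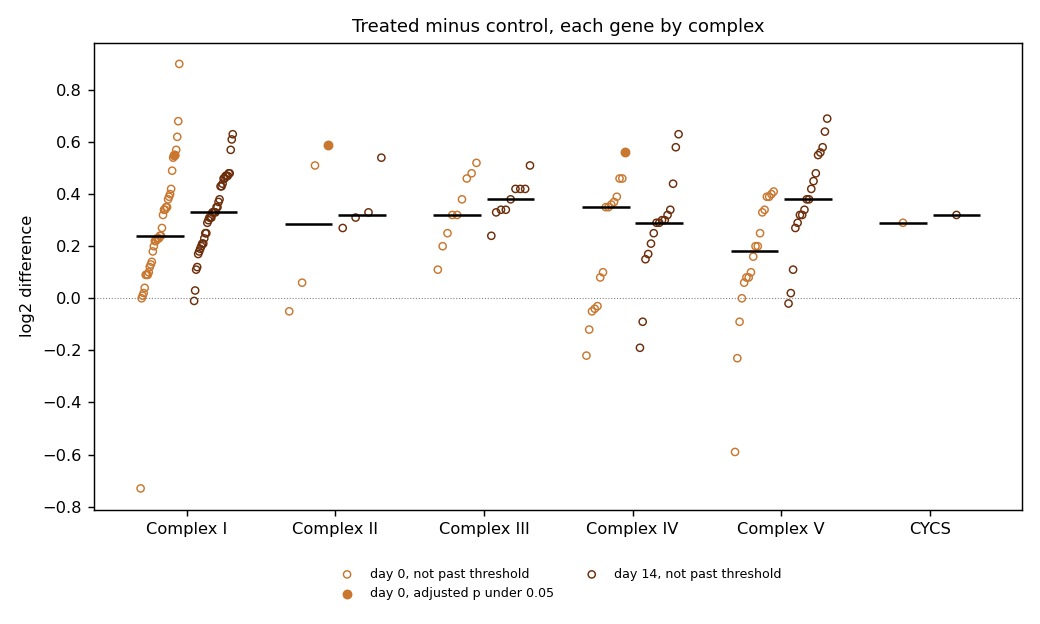
Log2 difference between treated and control muscle (vertical axis) for each gene, by complex, at day 0 and at day 14; filled points passed at an adjusted p under 0.05 and black lines are medians. The complex medians lie between 0.18 and 0.38 on both days, and the filled points are NDUFV1, SDHA and COX7A2L at day 0.

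At day 14 the treated mean was again the higher one for most genes, and no gene passed. The difference was above 0 for 82 of 86 genes (95.3%; all probes 55.5%), with a median of 0.33 against 0.05 over all probes. No gene of the 86 was called by limma, where 0.0259% of probes were called higher and 0.0454% lower. At an unadjusted p under 0.05 there were 2 of the 86 genes (2.33%; all probes 10.5%), and the smallest adjusted p was 0.462. NDUFV1 differed by 0.33 ± 0.22, SDHA by 0.54 ± 0.35 and COX7A2L by 0.30 ± 0.23. The highest differences were those of ATP5F1B, the catalytic beta subunit of the ATP synthase, at 0.69 ± 0.46 and ATP5PO at 0.64 ± 0.29, and the lowest was that of COX6B2 at -0.19 ± 0.25.

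By complex, the day 14 medians were 0.33 for complex I, 0.32 for II, 0.38 for III, 0.29 for IV and 0.38 for V, and CYCS differed by 0.32 ± 0.37. Complex I ran from NDUFA4 at -0.01 ± 0.30 to NDUFA5, an accessory subunit, at 0.63 ± 0.36, and 38 of its 39 genes were above 0 on this day too. In complex II all 4 genes were above 0, from SDHC at 0.27 ± 0.34 to SDHA. Complex III ran from UQCRB at 0.24 ± 0.53 to CYC1 at 0.51 ± 0.31, and complex IV from COX6B2 to COX6B1, the form of subunit VIb found in most tissues, at 0.63 ± 0.30. In complex V, 17 of 18 were above 0, the lowest being ATP5MC1 at -0.02 ± 0.28. The smallest p belonged to COX8B, at 0.34 ± 0.15 (limma, adjusted p = 0.462), whose treated values lay above all control values.

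The day 14 median was not the same on each slide. It was 1.08 on slide 2 (2 treated arrays and 1 control array) and 0.66 on slide 4 (2 and 1), and -0.64 on slide 5 (1 and 1), where 77 of 86 genes were lower in the treated animal. The 1 control array was that of K6, K9 and K10 in turn, so slide and animal cannot be told apart. Over the mean of both days in each animal, 83 of the 86 genes were above 0 with a median of 0.29, and none passed (background 1.42% higher and 1.88% lower). There, 26 genes had an unadjusted p under 0.05 (30.2%; all probes 19.1%). The smallest adjusted p was 0.0708, for COX8B at 0.40 ± 0.11, and the highest difference was that of NDUFA7, an accessory subunit of complex I, at 0.65 ± 0.20. Without DE31, 3 genes passed as higher.

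Storage was followed by lower levels of many of these genes in both treatments, and complex IV had the smallest median change. In control muscle 36 of 86 genes (41.9%) fell between day 0 and day 14, where 17.3% of tested probes were called lower, and 4 rose (4.65%), where 21.8% were called higher. In treated muscle 22 fell (25.6%; background 11.7%) and 2 rose (2.33%; background 17.9%). The median change was -0.58 and -0.47 over the 86 genes, against 0.10 and 0.11 over all tested probes. Of the 36 and 22 genes that fell, 21 were in both lists, which is 58.3% of the control list and 95.5% of the treated list. Of the 86 probes 78 lie in the brightest quartile of tested probes, whose median change was -0.11 in controls and -0.07 in treated muscle.

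Markers of several cell types also moved with storage. Of 9 skeletal muscle fibre markers 1 rose and 3 fell in controls (median -0.03) and 5 rose in treated muscle (median 0.74), and their mean level ran from 15.98 to 16.61 at day 0 and 16.26 to 16.59 at day 14 in controls and from 15.71 to 16.25 and 16.45 to 16.98 in treated muscle. These values depend on the scaling. In treated muscle the median was 0.44 with median centring (3 rose) and 0.04 with quantile normalization (2 rose). It was 0.53 with normexp background correction and 0.69 in the authors' series table (5 rose and 1 fell in each). In controls the median was -0.30, -0.22, -0.22 and 0.20 in the same order. Of 7 fibroblast markers 4 fell in each treatment (medians -0.73 and -1.36), with a mean level of 10.84 to 11.91 and then 9.95 to 11.83 in controls and 10.68 to 11.86 and then 8.59 to 10.92 in treated muscle. Of 6 endothelial markers 4 rose in controls and 1 in treated muscle (medians 0.99 and 0.69), with a mean level of 8.95 to 9.40 and then 9.33 to 10.74 in controls and 9.37 to 9.81 and then 9.56 to 10.78 in treated muscle. The part of these cell types in the changes of the 86 genes was not tested.

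With the animal as a block, which pairs day 0 and day 14 of each animal, 27 genes fell and 3 rose in controls, and 15 fell and 1 rose in treated muscle. All of these 27 and 15 were among those that fell without the block. Genes called lower without the block and not with it were NDUFA13, NDUFB4, NDUFB11, NDUFS4, NDUFS6, ATP5F1A, ATP5F1B, ATP5MG and ATP5PD in controls (adjusted p = 0.0506 to 0.0917 with the block) and, among others, NDUFA12, NDUFB11, NDUFS1, ATP5MC3, ATP5PB and ATP5PF in treated muscle (0.0562 to 0.0772). The difference between treatments in the change was called for no probe by limma (background 0.0%). At an unadjusted p under 0.05 for it there was no gene of the 86, and 538 of all tested probes (3.49%). Among the 86 genes the difference of smallest p was that of NDUFA4L2, at -0.87 ± 0.53 (treated change minus control change), followed by ATP5PO at 1.23 ± 0.79 (limma, adjusted p = 0.999 for both). The lists of the 2 treatments are not shown to differ.

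**Figure D3:**
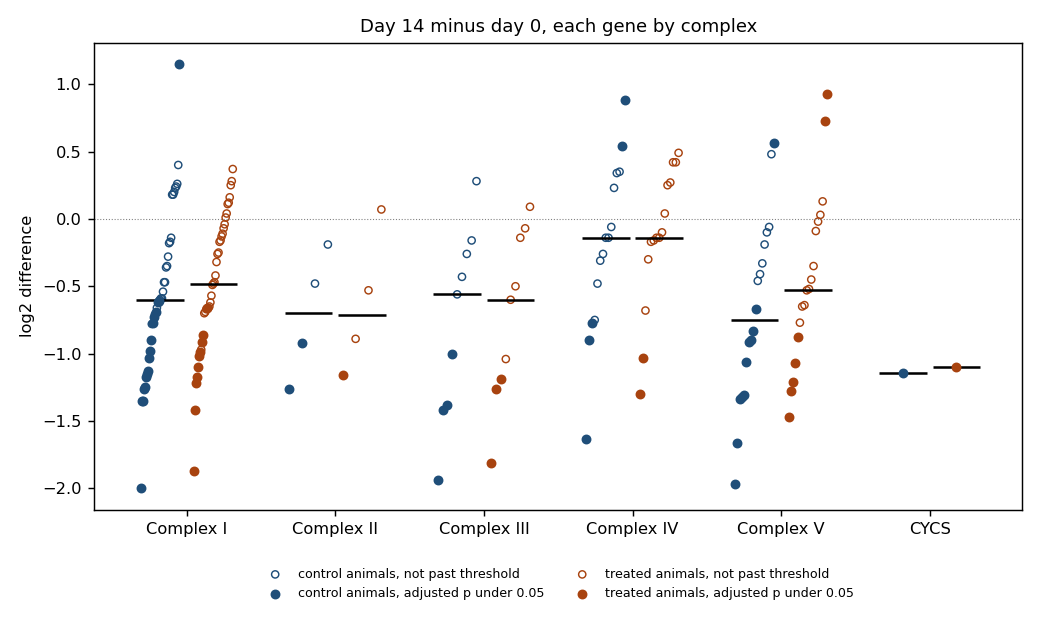
Log2 difference between day 14 and day 0 (vertical axis) for each gene, by complex, in control and in treated animals; filled points passed at an adjusted p under 0.05 and black lines are medians. Most points lie below 0, the medians of complex IV are -0.14 in both treatments, and NDUFV3 is lowest in each at -2.0 and -1.87.

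In complex I, 16 of 39 genes fell and 1 rose in controls, and 10 fell in treated muscle, with medians of -0.60 and -0.48. NDUFV3, an accessory subunit of the NADH-oxidising arm, changed most. Its level was 13.59, 13.25, 13.39, 13.08 and 12.94 at day 0 and 11.52, 10.70, 11.59, 10.20 and 12.23 at day 14 in controls. In treated muscle it was 13.58, 13.75, 13.54, 13.45 and 13.62 at day 0 and 13.16, 11.48, 12.49, 10.53 and 10.92 at day 14. Day 0 and day 14 did not overlap in either treatment, and all 10 animals were lower at day 14. The change was -2.0 ± 0.34 in controls, 4.0-fold lower (limma, adjusted p = 0.00172), and -1.87 ± 0.43 in treated muscle, 3.66-fold lower (adjusted p = 0.00857).

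Of the core subunits of complex I, NDUFS1 and NDUFV2 fell in both treatments, by 1.35 and 1.13 in controls and by 1.22 and 1.02 in treated muscle. NDUFV1, NDUFS3, NDUFS7 and NDUFS8 did not pass, with control changes of 0.23, -0.17, 0.20 and 0.40. These core subunits ran from -1.35 to 0.40 in controls within 1 complex. Accessory subunits that fell in both treatments were NDUFA12, NDUFB5, NDUFB6, NDUFB9, NDUFB11, NDUFC2 and NDUFV3, with control changes from -2.0 to -0.62; NDUFB11 in both treatments and NDUFA12 in treated muscle did not pass with the animal as a block. NDUFA1, NDUFA2, NDUFA13, NDUFB4, NDUFC1, NDUFS4 and NDUFS6 fell in controls, by 0.61 to 1.25, without passing in treated muscle.

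In complex II, SDHC and SDHD, the membrane anchors, fell in controls by 0.92 ± 0.26 and 1.26 ± 0.29 (limma, adjusted p = 0.018 and 0.00713). SDHC also fell in treated muscle, by 1.16 ± 0.30 (adjusted p = 0.0154), and SDHD read -0.89 ± 0.37 there. The hydrophilic subunits did not pass: SDHA changed by -0.48 ± 0.21 and -0.53 ± 0.31, and SDHB, the iron-sulphur subunit, by -0.19 ± 0.19 and 0.07 ± 0.16.

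In complex III, UQCRB, UQCRC2 and UQCRH fell in both treatments and UQCRFS1, the Rieske iron-sulphur protein, in controls. UQCRB was 9.64, 9.0, 9.40, 9.67 and 7.44 at day 0 and 7.18, 6.11, 7.81, 6.10 and 8.23 at day 14 in controls. It was 8.03, 9.77, 9.49, 9.28 and 9.12 and then 8.43, 7.01, 8.26, 6.51 and 6.41 in treated muscle. K10 and DE27, whose day 0 arrays were on slide 6, were the lowest at day 0 and the highest at day 14 in their groups, so the days overlap. The change was -1.94 ± 0.52 (adjusted p = 0.0133) and -1.81 ± 0.46 (adjusted p = 0.0127). UQCRC2 changed by -1.42 ± 0.34 and -1.26 ± 0.40 (DE29 missing at day 14) and UQCRH by -1.38 ± 0.34 and -1.19 ± 0.33. CYC1, the cytochrome c1 subunit, did not pass, at -0.26 ± 0.21 and -0.07 ± 0.29, and neither did UQCRC1, at 0.28 ± 0.14 and 0.09 ± 0.21.

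CYCS, the mobile carrier cytochrome c, fell in both treatments. Its level in controls was 12.69, 12.31, 12.06, 11.83 and 11.77 at day 0 and 11.31, 10.88, 10.95, 10.36 and 11.48 at day 14. In treated muscle it was 12.17, 12.74, 12.23, 12.85 and 12.13 and then 11.79, 11.96, 11.95, 10.52 and 10.38. Day 14 lay below day 0 without overlap in both treatments, in 10 of 10 animals, with changes of -1.14 ± 0.25 (adjusted p = 0.00548) and -1.10 ± 0.35 (adjusted p = 0.035).

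In complex IV, 3 of 15 genes fell and 2 rose in controls, and 2 fell in treated muscle. COX5A, a subunit on the matrix side, fell by 1.63 ± 0.38 and 1.30 ± 0.36, and COX7B in controls by 0.90 ± 0.27. COX7A2L was 10.11, 10.03, 10.11, 9.86 and 10.15 in controls and 10.92, 10.53, 10.57, 9.65 and 10.08 in treated muscle at day 14, in each treatment below all of its day 0 values. It fell by 0.77 ± 0.14 in controls and 1.03 ± 0.23 in treated muscle (limma, adjusted p = 0.00237 and 0.00709).

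COX8B, the muscle-type subunit VIII, changed the other way. It was 15.71, 15.86, 15.56, 15.59 and 15.63 at day 0 and 16.35, 16.24, 16.17, 16.03 and 16.23 at day 14 in controls, with no overlap. It rose by 0.54 ± 0.14 in controls (adjusted p = 0.0105), and in treated muscle the change was 0.42 ± 0.16 (adjusted p = 0.0714), higher in 5 of 5 animals. Centred on the median of each array instead, the control change was 0.27 and did not pass (adjusted p = 0.157). The other muscle-type isoforms did not pass: COX6A2 changed by 0.35 ± 0.16 and 0.25 ± 0.21 and COX7A1 by -0.14 ± 0.19 and -0.17 ± 0.23. The ubiquitous COX7A2 changed by -0.26 ± 0.21 and -0.14 ± 0.28, and COX8A, described on the array as a heart form but named COX8A by RefSeq, by 0.23 ± 0.16 and 0.04 ± 0.20. COX4I1, the common form of subunit IV, changed by -0.31 ± 0.19 and -0.16 ± 0.21. COX6B1 changed by -0.06 ± 0.28 and 0.49 ± 0.39 and COX6B2 by 0.34 ± 0.27 and 0.27 ± 0.33.

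COX4I2, the alternative form of subunit IV, and NDUFA4L2 rose in controls and are known from smooth muscle cells and pericytes of vessels. COX4I2 was 9.14, 8.26, 8.01, 8.75 and 8.27 at day 0 and 9.39, 9.11, 10.01, 9.80 and 8.55 at day 14, higher in 5 of 5 control animals, by 0.88 ± 0.30 (adjusted p = 0.0362; 0.62 with adjusted p = 0.116 when centred on the array median). NDUFA4L2 was 8.83, 8.72, 8.56, 7.85 and 7.81 and then 9.96, 9.40, 8.79, 10.17 and 9.21, a rise of 1.15 ± 0.30 (adjusted p = 0.0124). In treated muscle their changes were 0.42 ± 0.24 and 0.28 ± 0.40 and did not pass. The 4 smooth muscle markers tested (4 of 4) also rose in controls, with a median of 1.54, and their mean level ran from 11.34 to 11.97 at day 0 and from 11.88 to 14.24 at day 14. In treated muscle none of the 4 passed (median 0.54, mean level 11.01 to 12.32 and then 11.22 to 13.26). The part of vessel cells in the 2 rises was not tested.

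In complex V, 10 of 18 genes fell and 1 rose in controls, and 5 fell and 2 rose in treated muscle, with medians of -0.75 and -0.53. Of the peripheral stalk, which holds the catalytic head still, ATP5PB, ATP5PF, ATP5PD and ATP5PO fell in controls, by 1.97, 1.66, 0.67 and 1.32, and ATP5PB and ATP5PF fell in treated muscle by 1.47 and 1.07. ATP5PB was 9.59, 9.74, 9.46, 9.26 and 8.48 and then 7.71, 6.08, 7.71, 6.60 and 8.59 in controls. It was 8.33, 9.99, 8.98, 8.56 and 9.55 and then 8.92, 7.74, 8.20, 6.30 and 6.88 in treated muscle. K10 and DE27 were again the animals without a lower value at day 14.

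Among the genes ATP5F1A to ATP5F1E, ATP5F1A, the alpha subunit of the catalytic head, fell in both treatments, by 0.91 ± 0.32 and 0.88 ± 0.29. ATP5F1B fell in controls by 1.06 ± 0.37 (adjusted p = 0.0419) and read -0.53 ± 0.32 in treated muscle, and ATP5F1C fell in controls by 0.90 ± 0.29. ATP5F1D (without K10 at day 0, missing) and ATP5F1E did not pass, at -0.19 and -0.33 in controls and -0.02 and 0.03 in treated muscle. The 3 genes for the same c subunit of the proton-driven ring differed in their values: ATP5MC3 fell by 1.34 ± 0.38 and 1.21 ± 0.40, while ATP5MC1 read -0.10 ± 0.19 and -0.45 ± 0.26 and ATP5MC2 -0.46 ± 0.18 and -0.35 ± 0.26, without passing. The difference among the 3 genes was not tested.

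ATP5MF, a small membrane subunit, rose in both treatments. It was 8.05, 7.78, 7.82, 7.69 and 8.56 and then 8.42, 8.77, 8.44, 8.73 and 8.34 in controls, and 8.06, 8.25, 8.13, 8.04 and 7.94 and then 8.40, 9.79, 9.15, 8.89 and 8.86 in treated muscle. The days did not overlap in treated muscle and overlapped through K10 in controls. The rise was 0.56 ± 0.19 (adjusted p = 0.039; 0.0896 with the animal as a block) and 0.93 ± 0.23 (adjusted p = 0.0129; 0.0208 with the block). ATP5MK, a small subunit that joins synthase dimers, rose in treated muscle by 0.73 ± 0.21 (adjusted p = 0.0216; 0.0514 with the block) and read 0.48 ± 0.22 in controls. Centred on the array median, neither gene passed, ATP5MF reading 0.29 and 0.62 and ATP5MK 0.21 and 0.42.

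**Figure D4:**
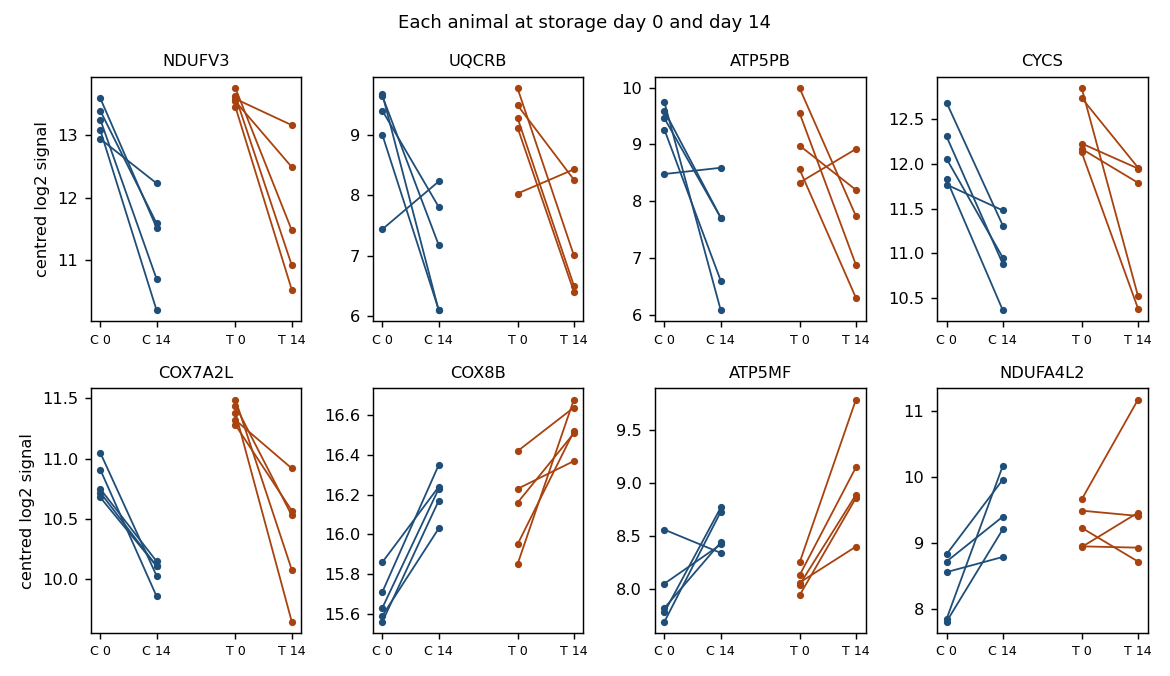
Centred log2 signal (vertical axis) of 8 genes at storage day 0 and day 14, where each line joins the samples of 1 control (C, blue) or treated (T, red) animal. At day 14 NDUFV3, CYCS and COX7A2L are lower in all 10 animals, UQCRB and ATP5PB are higher in K10 and DE27, COX8B is higher in all 10, ATP5MF is higher in all but K10, and NDUFA4L2 is higher in all 5 controls.

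The change with storage ranged widely among animals. The median change over the 86 genes was -0.65, -1.08, -0.21, -1.03 and 0.22 in controls and 0.38, -0.67, -0.05, -1.03 and -0.94 in treated animals. Over all tested probes it lay between 0.01 and 0.17 in the same animals. K10 and DE27, with medians above 0, had 26 and 23 genes lower at day 14, against 45 to 80 in the other 8 animals. Relative to the control mean at day 0, the median level was -0.27 on the day 0 array of K10 and 0.09 on that of DE27, the lowest of their groups, and both were on slide 6.

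Complex IV had a higher median change than complexes I, II and V in 8 of 10 animals, the exceptions being K10 and DE27. In K6 the complex IV median was -0.61 against -1.09 for complex I and -1.38 for complex II, and in DE32 it was -0.29 against -0.93 and -1.32. In K10 the complex medians lay between 0.05 and 0.28.

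**Figure D5:**
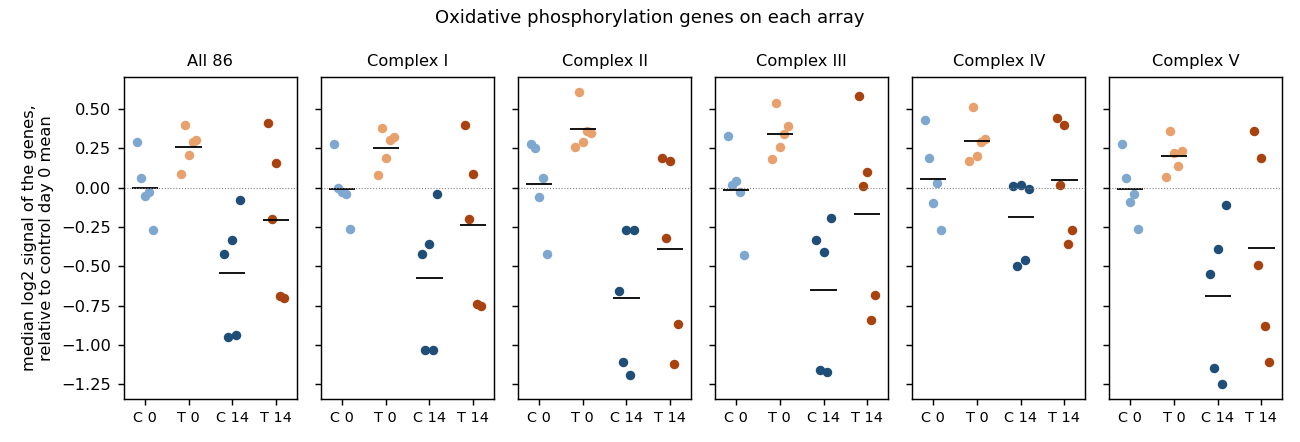
Median log2 signal of the genes on each array, relative to the mean of the control day 0 arrays, for all 86 genes and by complex, in control (C) and treated (T) muscle at day 0 and day 14; each point is 1 animal and lines are group means. For all 86 genes, day 0 arrays lie between -0.27 and 0.29 in controls and between 0.09 and 0.40 in treated muscle. Day 14 arrays lie between -0.95 and -0.08 in controls and between -0.70 and 0.41 in treated muscle. Control and treated arrays overlap on both days.

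The counts of genes that fell depend on single animals and on the slides. In controls 17 fell without K3, 18 without K6, 29 without K8, 15 without K9 and 46 without K10. In treated muscle 41 fell without DE27, 5 without DE29, 20 without DE30, and 4 without DE31 or DE32. In every such fit 15 of the 36 control genes passed (NDUFB5, NDUFB6, NDUFB9, NDUFC1, NDUFC2, NDUFS1, NDUFV3, SDHD, UQCRC2, UQCRH, COX5A, COX7A2L, ATP5PB, DMAC2L and CYCS), and 4 of the 22 treated ones (NDUFB5, NDUFV3, COX7A2L and DMAC2L). Within sessions 1, 2 and 3 the median change of the 86 genes was -1.18, -0.53 and -0.09 in controls. Within sessions 1 and 2 it was -0.34 and -0.74 in treated muscle. Both days share a slide only on slide 6 for controls (2 day 14 arrays and 1 day 0 array, median -0.09) and on slide 5 for treated animals (DE32, median -0.94), and with slide as a block no gene passed in either treatment.

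Other genes of mitochondria were taken from lists chosen by role. Their counts stand against the same backgrounds as above, 17.3% of probes lower and 21.8% higher with storage in controls and 11.7% and 17.9% in treated muscle. Of the 13 mitochondrially encoded subunits of the same complexes 8 rose in controls and 7 in treated muscle, with medians of 0.60 and 0.96, none was called lower, and none was saturated. These counts depend on the scaling: in controls 3 rose with median centring, 4 with normexp background correction, 6 with quantile normalization and 9 in the authors' series table, and in treated muscle 5, 4, 1 and 5, while the medians stayed between 0.32 and 0.96. COX1, the catalytic subunit of complex IV, rose by 1.22 ± 0.30 and 0.99 ± 0.24. Between treated and control muscle at day 0, 6 of these 13 were above 0 and 7 below (all probes 48.9% above), with a median of -0.07. At day 14, 12 were above 0 (all probes 55.5%), with a median of 0.39, and none was called on either day. In the tricarboxylic acid cycle (without the SDH genes) 6 of 13 fell and 1 rose in controls and 4 fell and 1 rose in treated muscle, led by IDH3A at -1.62 and -1.71, with medians of -0.72 and -0.50. OGDH was the one that rose, by 0.61 and 0.87, and no gene of this list was called higher with median centring, quantile normalization or the authors' series table in either treatment. At day 0, CS (citrate synthase) and IDH3B of this list were higher in treated muscle, by 0.65 ± 0.12 and 0.70 ± 0.13 (limma, adjusted p = 0.0224 and 0.02).

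Of 73 mitochondrial ribosomal protein genes 36 fell and 1 rose with storage in controls and 24 fell and 1 rose in treated muscle, with medians of -0.60 and -0.44 that lie close to those of the 86 genes. MRPS23 fell in both, with changes of -1.89 and -1.94. At day 0, 1 of the 73 was called higher in treated muscle, where 1.35% of all probes were: MRPS18A, by 1.55 ± 0.20. The difference was above 0 for 55 of the 73 (all probes 48.9%), with a median of 0.24. Of 31 assembly factors 13 fell and 2 rose in controls and 8 fell and 2 rose in treated muscle, and the 2 that rose in each were COX10 and SCO1, which act in haem and copper supply to complex IV, at 0.76 and 1.49 in controls. Of 9 carrier and energy transfer genes 3 fell in controls (VDAC1, VDAC2 and VDAC3, pores of the outer membrane) and VDAC2 and VDAC3 in treated muscle.

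Of 16 regulators of mitochondrial biogenesis, TFB1M was lower in treated than control muscle at day 0, by -0.69 ± 0.15 (adjusted p = 0.034), and none was called higher. PPARGC1A, the coactivator PGC-1 alpha, differed by 1.65 ± 0.53 without passing (adjusted p = 0.137). ESRRA differed by 0.57 ± 0.16, TFAM, which packs and transcribes mitochondrial DNA, by 0.45 ± 0.19 and NRF1 by 0.23 ± 0.24, and none of these passed. With storage 1 of the 16 rose and 1 fell in controls, and 3 rose in treated muscle. NRF1 rose in both, by 1.15 ± 0.20 and 0.89 ± 0.26, TFB2M fell in controls by 0.74 ± 0.24, and PPRC1 and SSBP1 rose in treated muscle by 0.79 ± 0.23 and 0.75 ± 0.23, while TFAM changed by -0.09 ± 0.22 and -0.05 ± 0.22. Slow fibre markers had treatment differences at day 0 with a median of 0.09 and fast fibre markers of -0.41. Of these, 5 of 9 and 1 of 8 were above 0, with 0 of 9 and 0 of 8 called by limma. At day 14 the medians were 0.19 and 0.39, with 7 of 9 and 7 of 8 above 0 and again none called. For the 9 skeletal muscle fibre markers the median was -0.36 at day 0 (2 above 0) and 0.49 at day 14 (8 above 0), with none called. At day 14 the treatment medians were -0.88 for 7 fibroblast, -0.94 for 4 smooth muscle and -0.06 for 6 endothelial markers, with 0, 0 and 2 above 0. At day 0 these medians were 0.02, 0.14 and 0.31, with 4, 3 and 6 above 0, and none was called on either day. The part of fibre or cell type makeup in the treatment differences was not tested.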

How the data were processed

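Signal was measured in 20 samples on a one-colour Agilent array (design 015354) and extracted with Feature Extraction 9.5.1.1, per the file headers. The intensity values used are the processed signal (background-subtracted, detrended) that the authors deposited per array. They also deposited a series table of normalized intensity with an unstated method, used as an alternative (R 2.11.1 is named in the submitters' processing notes). Log2 values were computed here from the deposited intensity, without outlier spots (935), and centred on each array's 75th percentile. Probes well above background, per deposited flags of another kind, on at least 5 of 20 arrays were tested (15430 of 21475) with limma 3.58.1 in R 4.3.3 (lmFit, eBayes, Benjamini-Hochberg, threshold 0.05), checked on simulated data. Array signal has no read depth, and precision is set by having 5 animals in each group. Treatment was compared at each day and over each animal's mean, and storage within each treatment, with their interaction.

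Groups came from titles and characteristics. A description field that contradicts them was not used, and one title with a shortened animal name was read as DE31 by its number. Gene names came from the array's annotation and a table of current bovine genes (ARS-UCD2.0). No sequences or positions were used. The day 0 and day 14 samples of an animal share its number, so the animal was a paired alternative: deviations from the group means correlated between the days with r from -0.15 to 0.28 (10 animals). Members and lists were chosen with earlier results of these data known. Named by rule were the genes that passed (at most the 10 with the largest absolute log2 change per direction and comparison; where none passed, the 2 per direction of smallest p), the highest and lowest of each complex in the treatment comparisons, cytochrome c genes, complex II, tissue isoform pairs, c-ring and catalytic subunits of complex V, and up to 4 called genes per other list. Further subunits, including the other called genes of each complex, were named after their values were seen. The values of 1 member are not reported here.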

Additional observations from a re-analysis of the deposited data

Results flagged for a closer look

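In groups of 5 arrays, 4 of 202 sets of values examined had 1 sample far from the other 4, where chance gives about 5% of sets. NDUFA4 at day 0 read 12.75 in treated animal DE27, against 15.97 to 16.73 in the other treated animals. COX6C read 13.15 in control animal K10 at day 0, against 14.69 to 15.00, and UQCRC2 read 11.10 there, against 12.25 to 12.50. In treated animal DE27 at day 0 COX6C read 12.67, against 14.23 to 14.96, without being flagged. The complex II median of treated animal DE29 at day 0, relative to the control day 0 mean, was 0.61, against 0.26 to 0.36. The day 0 arrays of DE27 and K10 are both on slide 6, and the part of the slide in these values was not tested.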

How the results depend on the processing

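The median of the 86 genes kept its sign in both storage comparisons and all 3 treatment comparisons under each alternative run; that of the interaction (0.09), with no gene called in any fit, ran from -0.02 to 0.11, and from -0.13 to 0.25 without 1 animal. Control storage: the median was -0.08 with slide as a block and otherwise -0.84 to -0.40, and leaving out 1 animal gave -0.77 to -0.44, 15 to 46 genes lower and 1 to 4 higher. Genes lower (36) were 0 with slide as a block and 20 with the animal as replicate block and quantile normalization. Genes higher (4) were 8 with quantile normalization, 1 with median centring (with or without the replicate block), 2 with session as a block, with the replicate block and quantile normalization or with the array's own symbols only, and 0 with slide as a block. Treated storage: the median was -0.94 with slide as a block and -0.78 with median centring (also with the replicate block), and leaving out 1 animal gave -0.72 to -0.32, 4 to 41 lower and 0 to 2 higher. Genes lower (22) were 36 with median centring, 48 with normexp, 12 with the replicate block and quantile normalization and 0 with slide as a block. Genes higher (2) were 1 with the replicate block, normexp or the array's own symbols, and 0 with median centring (with or without the block) or slide as a block. Treatment at day 0: genes higher (3) were 8 with normexp, 5 with probes above background on all arrays or with eBayes trend and robust, 0 without the filter, with slide as a block or with all arrays and the animal as random replicate block, and 0 to 2 without 1 animal. Over both days they were 0 to 3 without 1 animal. With slide as a block the control storage changes of ATP5MF (-0.13) and UQCRB (0.06) had the opposite sign. The storage fits with slide as a block draw on slide 6 for controls and slide 5 for treated animals. Only there do both days share a slide, so these fits cannot separate slide from animal. The causes were not tested. The fit with slide as a random block, the block combined with other scalings and the array's own symbols were chosen after seeing the data. Averaging a gene's probes was not run, since each gene has 1 probe. A p that misses the threshold with 5 animals a group does not show equal levels.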
